A study of Mus musculus with 13 samples.

Results

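KLF1 binding in the fetal liver of MommeD45 mice was described from every peak called in 1 KLF1 chromatin immunoprecipitation (ChIP-seq) library. The authors' list held 490 rows, and 5 peaks that were split into 2 summits each kept the summit with the higher fold enrichment, which gave 485 peaks. They are 485 of the 1688 peaks called over both genotypes, of which 1203 came from the wildtype library. Of the 485, 362 shared at least 1 base with a wildtype peak and 123 shared none.

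The series comprised 13 libraries from mouse fetal livers at 14.5 days post coitum, a stage at which the liver makes most of the red cells. MommeD45 is an allele of Klf1, and the series title places the mutations studied in the second linker of the protein, between its zinc fingers. The 4 chromatin libraries were a KLF1 ChIP and an input from wildtype and from MommeD45 livers, each made from 2 pooled replicates. Whether the MommeD45 livers used for chromatin carried the allele on 1 or on both chromosomes was not stated in the labels. The 9 mRNA libraries came from 3 other genotype groups of 3 replicates each, namely 1 intact Klf1 allele over a null allele (+/-), MommeD45 over a null allele (D45/-) and no intact allele (-/-), so all of these livers carried at least 1 null allele. Globin transcripts were depleted from the mRNA before sequencing. Whole fetal liver was used, so a lower value from fewer red cell precursors and one from less RNA per cell cannot be told apart.

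KLF1 is a zinc finger transcription factor made in red cell precursors. Its 3 zinc fingers contact DNA at CACCC boxes and related C-rich sequences, and the adult beta-globin promoter is the site by which it was first known. Genes for heme synthesis, the red cell membrane skeleton, blood group proteins, cell cycle control and the globins are among its known targets in fetal liver.

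Promoter sequences are shown for 7 genes at which the MommeD45 summit lay inside the promoter window, with each match to CCNCNCCC (a C-rich form of the KLF1 site in which N is any base) or to CACCC, on either strand, in capitals. Dedd2, Pgam1, Syf2 and Donson had the strongest such peaks, while the globin genes Hba-a2 and Beta-s and the gene Ttll12, called lower in D45/- livers, were added after their values were seen. Each sequence is the 250 bases before the gene start, read 5′ to 3′ on the gene's strand from RefSeq promoter windows of build GRCm38.p6. Because the peaks are on build mm9, the positions of summits and of motifs are each counted from the gene start in their own build.
Dedd2: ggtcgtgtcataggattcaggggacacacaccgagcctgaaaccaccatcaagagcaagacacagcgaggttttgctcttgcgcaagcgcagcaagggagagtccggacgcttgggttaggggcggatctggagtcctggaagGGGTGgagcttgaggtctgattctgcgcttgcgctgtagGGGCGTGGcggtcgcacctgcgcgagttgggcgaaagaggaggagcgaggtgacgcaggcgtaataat
Pgam1: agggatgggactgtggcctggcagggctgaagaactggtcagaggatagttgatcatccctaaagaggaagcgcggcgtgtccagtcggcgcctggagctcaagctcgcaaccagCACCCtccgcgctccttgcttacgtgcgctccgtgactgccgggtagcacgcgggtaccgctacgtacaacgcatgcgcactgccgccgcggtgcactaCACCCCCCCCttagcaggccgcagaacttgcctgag
Syf2: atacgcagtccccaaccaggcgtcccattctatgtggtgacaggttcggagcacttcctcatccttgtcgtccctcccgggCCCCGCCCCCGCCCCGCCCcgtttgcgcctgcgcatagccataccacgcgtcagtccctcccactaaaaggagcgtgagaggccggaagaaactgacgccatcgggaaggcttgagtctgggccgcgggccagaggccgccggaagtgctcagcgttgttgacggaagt
Donson: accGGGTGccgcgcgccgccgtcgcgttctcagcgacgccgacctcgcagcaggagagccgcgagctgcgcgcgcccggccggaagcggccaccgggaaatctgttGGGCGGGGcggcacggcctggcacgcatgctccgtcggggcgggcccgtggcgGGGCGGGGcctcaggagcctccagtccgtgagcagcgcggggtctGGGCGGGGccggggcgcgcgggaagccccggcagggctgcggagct
Hba-a2: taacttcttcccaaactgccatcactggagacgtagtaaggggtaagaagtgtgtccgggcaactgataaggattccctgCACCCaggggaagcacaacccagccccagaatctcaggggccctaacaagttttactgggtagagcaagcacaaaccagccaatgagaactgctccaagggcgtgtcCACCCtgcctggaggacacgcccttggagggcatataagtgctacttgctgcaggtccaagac
Beta-s: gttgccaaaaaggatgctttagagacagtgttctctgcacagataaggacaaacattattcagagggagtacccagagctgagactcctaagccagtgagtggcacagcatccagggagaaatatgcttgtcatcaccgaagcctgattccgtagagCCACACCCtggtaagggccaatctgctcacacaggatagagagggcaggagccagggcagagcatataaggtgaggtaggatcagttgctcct
Ttll12: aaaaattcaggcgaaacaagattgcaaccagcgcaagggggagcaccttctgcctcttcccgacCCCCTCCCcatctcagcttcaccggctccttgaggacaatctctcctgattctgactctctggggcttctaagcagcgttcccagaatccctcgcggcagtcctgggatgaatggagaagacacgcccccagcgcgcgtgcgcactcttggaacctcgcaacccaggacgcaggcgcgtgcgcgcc

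The Beta-s window, from a gene of the adult beta-globin locus, held a single match, CCACACCC at 93 to 86 bases before the start, and the MommeD45 summit lay 98 bases before it. Hba-a2, an alpha-globin gene, had CACCC at 63 to 59 bases before the start and its summit 55 bases before it. Dedd2, which encodes a death effector domain protein, had GGGCGTGG, the same motif on the other strand, at 68 to 61 bases before the start, with the summit 57 bases before it. In Syf2, a splicing factor gene, 4 overlapping matches ran from 169 to 151 bases before the start, and the summit was 150 bases before it. In Ttll12, a tubulin tyrosine ligase-like gene, the only match lay 186 to 179 bases before the start and the summit 37 bases before it, so match and summit were farther apart than in those 4 genes. Pgam1 had its nearest match at 34 to 27 bases before the start and its summit 13 bases after it, beyond the bases shown. Donson had 3 CCNCNCCC matches, at 144 to 137, 91 to 84 and 46 to 39 bases before the start. Its summit, 105 bases before the start, lay on none of them.

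These letters were common at genes near a peak, but also among listed genes in general. Of the 35 genes with a summit inside the 300-base window (250 bases before to 50 after the start, genes with a single window only), 28 held CCNCNCCC, which is 80.0% (exact 95% interval 63.1 to 91.6%). The share was 48.1% over all 22862 genes with a single window, and 69.7% over the 1282 such genes in the authors' expression table. Base composition moved with it, because the median GC content was 65.0% in the 35 windows, 61.0% in those of the listed genes and 52.3% in all windows, and its part in the motif share was not tested. CACCC, with no further bases, was in 21 of the 35 windows (60.0%), in 56.0% of all windows and in 64.3% of those of the listed genes. The GATA-type motif AGATAA was in 1 of the 35 windows, in 11.5% of all windows and in 8.89% of those of the listed genes. CCAAT, searched on both strands like the others, was in 16 of 26 windows whose peak was shared with wildtype and in 1 of 9 whose peak was not, against 38.2% of all windows. The exact 95% intervals of those shares were 40.6 to 79.8% and 0.281 to 48.2%, and they overlap. CACCC can lie inside a CCNCNCCC match, while CCAAT and AGATAA cannot.

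Peak strength was read from the fold enrichment over local background, which, like the pileup and the score, is the authors' own value for each peak and only describes or ranks peaks within its list. Fold enrichment ran from 2.61 to 44.9 with a median of 4.77, and the middle part of the list, from the lower to the upper quartile, lay between 3.995 and 6.01. The pileup at the summit ran from 17 to 253 fragments with a median of 28, and peak length from 173 to 486 bases with a median of 218. A small set stood above the rest: 14 peaks had a fold enrichment over 20, the lowest of them at 20.3, and the next peak below was at 15.4.

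**Figure D1:**
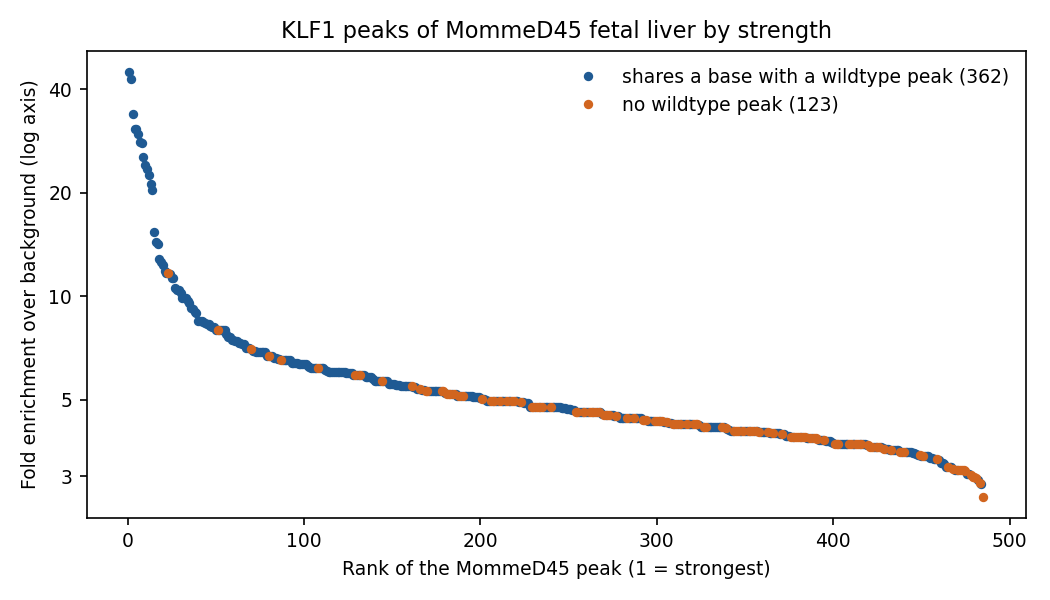
Fold enrichment (log axis) of each of the 485 MommeD45 peaks by rank, from the strongest at left, with the 362 peaks that share a base with a wildtype peak in blue and the 123 others in orange. Blue points hold the first 22 ranks, the first orange point is at rank 23 with a fold enrichment of 11.7, and orange points become frequent below a fold enrichment of about 5.

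The strongest peak, at chr17:25715873-25716352 (mm9), had a fold enrichment of 44.9 and a pileup of 253, and its summit was 8 bases from the wildtype summit. The next, at chr15:56455101-56455499, had a fold enrichment of 42.9 and the same summit base as in wildtype. Neither lay within 10 kb of a gene of the authors' expression table. Of the other 8 of the 10 strongest, 4 shared at least 1 base with the locus of a listed gene.

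The Dedd2 locus overlapped the peak at chr7:26004743-26005139, with a fold enrichment of 33.9. Phyhip, which encodes a partner protein of phytanoyl-CoA hydroxylase, held the peak at chr14:70866014-70866400, with a fold enrichment of 30.6. Pgam1, which encodes the glycolytic enzyme phosphoglycerate mutase, overlapped the peak at chr19:41986173-41986655, with a fold enrichment of 29.7. Arhgef12, a guanine nucleotide exchange factor gene, held the peak at chr9:42910050-42910422, with a fold enrichment of 25.4, and its summit was 3580 bases after the gene start. The remaining 4 peaks, on chromosomes 4, 17, 3 and 5, had fold enrichments of 30.6, 28.1, 27.9 and 24.0 and no listed gene within 10 kb. All 14 peaks over a fold enrichment of 20 overlapped a wildtype peak, and those wildtype peaks ranked no lower than 21 in their own list.

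The MommeD45 list was shorter than the wildtype list, and most of it lay inside the wildtype list. The 362 overlapping peaks were 74.6% of the MommeD45 peaks (exact 95% interval 70.5 to 78.5%), and the 361 wildtype peaks they met were 30.01% of the wildtype peaks. Summits at the 362 overlapping peaks lay close together, with a median distance of 22 bases. At 297 of them (82.0%) the summits were at most 50 bases apart, and at 340 (93.9%) at most 100 bases.

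The share of peaks with a wildtype overlap was smaller among the weaker MommeD45 peaks. Among the 97 strongest peaks, 92 (94.8%, exact 95% interval 88.4 to 98.3%) had a wildtype peak. In the next groups of 97 by strength the numbers were 81 (83.5%) and 70 (72.2%). The 2 weakest groups had 59 (60.8%, 50.4 to 70.6%) and 60 (61.9%, 51.4 to 71.5%), so the strongest and the weakest groups did not overlap in their intervals, which cover counting error only. Each genotype had 1 ChIP library, so peaks could not be tested between genotypes and the spread between pools is unknown.

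**Figure D2:**
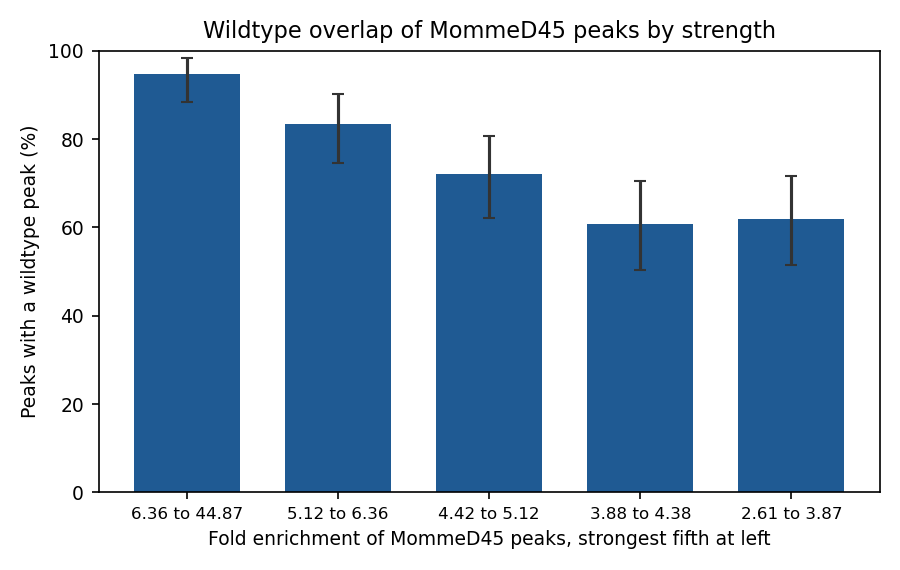
Share of MommeD45 peaks with a wildtype peak (percent) in 5 groups of 97 peaks by fold enrichment, strongest at left, with exact 95% intervals as error bars. The share goes from 94.8% in the strongest group to 60.8% and 61.9% in the 2 weakest.

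The libraries differed in ways that touch such counts. The sequencing depth is unknown from these files. The shortest peak was 173 bases in MommeD45 (50 peaks) and 194 in wildtype (69 peaks), and the median lengths were 218 and 264 bases. The deposited peak names mark pooling and removal of duplicates in the MommeD45 list and carry neither mark in the wildtype list. The part of these differences in the overlap was not tested.

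Peaks with no wildtype peak were mostly weak and short. The 123 had a median fold enrichment of 4.24, a median length of 193 bases and a median pileup of 25, against 4.97, 231 bases and 30 for the 362 overlapping peaks. Few had a wildtype peak close by: 3 of the 123 had a wildtype peak within 500 bases, 5 within 1000 bases and 12 within 10 kb, and the median distance to the nearest was 216947 bases. Of the 123, 4 lay within 10 kb of another MommeD45 peak. Of all 485 peaks 25.4% were in this class, and by chromosome the numbers included 17 of 52 on chromosome 11, 16 of 37 on chromosome 5, 7 of 19 on chromosome 14 and 0 of 2 on chromosome X, with no test of these differences.

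The strongest of the 123 was at chr5:107134291-107134559, with a fold enrichment of 11.7, a pileup of 65 and rank 23 in the list. A wildtype peak lay 4114 bases from it, and no listed gene lay within 10 kb. The second, at chr1:46132789-46132972, had a fold enrichment of 7.97 and rank 51, and its nearest wildtype peak was 1124526 bases away. The third, at chr9:106313679-106313951, had a fold enrichment of 7.02. The remaining 7 of the 10 strongest had fold enrichments from 5.48 to 6.71, and 2 of them lay within 10 kb of a listed gene.

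Those genes were Rab35, which encodes a small GTPase of endosomal recycling, and Pdk1, which encodes a kinase that shuts off pyruvate dehydrogenase. The Rab35 peak, at chr5:116081694-116081976, had its summit 165 bases before the gene start and a fold enrichment of 6.71. In the authors' deposited table Rab35 was at 81.8 FPKM in +/-, 53.2 in D45/- and 32.6 in -/-, called lower in -/- than +/- (log2 ratio -1.33) and higher in D45/- than -/- (0.71). The Pdk1 peak, at chr2:71711136-71711400, had its summit 50 bases before the start and a fold enrichment of 6.18. For Pdk1 the authors' deposited table gave 19.0 FPKM in D45/- and 32.1 in -/- livers, called lower in D45/- (log2 ratio -0.76).

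In the wildtype list, 24 of the 27 peaks over a fold enrichment of 20 had a MommeD45 peak, beside 361 (30.01%) of all 1203 wildtype peaks. The 3 without one were at chr9:66351774-66352238, chr14:55681461-55681904 and chr3:58258292-58258714, with wildtype fold enrichments of 33.6, 24.98 and 22.7. The first of them ranked 8 in wildtype, so 1 of the 10 strongest wildtype sites had no peak called in MommeD45.

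Genes were taken from the authors' expression table, which lists 2036 genes, each called in at least 1 of the 3 comparisons of genotypes. The table gives 1 abundance per genotype, taken to be FPKM (fragments scaled for transcript length and library size), so the spread between replicates is unknown and no SD can be set beside a value. A peak lay inside or within 10 kb of the locus for 150 of them (7.37%), and a wildtype peak for 327 (16.1%). Both kinds were near 121 genes, and 29 had a MommeD45 peak and no wildtype peak near. Counted over peaks, 150 of the 485 (30.9%) lay near a listed gene, which held for 31.2% of the overlapping peaks and 30.1% of the others. The remaining 335 peaks had a median distance of 164285 bases to a listed gene. Ppp1r10, which encodes a regulatory partner of protein phosphatase 1, had 3 MommeD45 peaks, the most for any listed gene.

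Many of the summits near listed genes lay close to a gene start, and no baseline from other positions or genes was counted. For 120 of the 150 genes the RefSeq table gave a strand, and in 44 of them (36.7%, exact 95% interval 28.1 to 45.9%) the nearest summit lay between 250 bases before and 50 after the start. In 66 (55.0%) it lay within 1000 bases on either side, in 40 (33.3%) more than 1000 bases after the start, and in 14 (11.7%) more than 1000 bases before it.

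**Figure D3:**
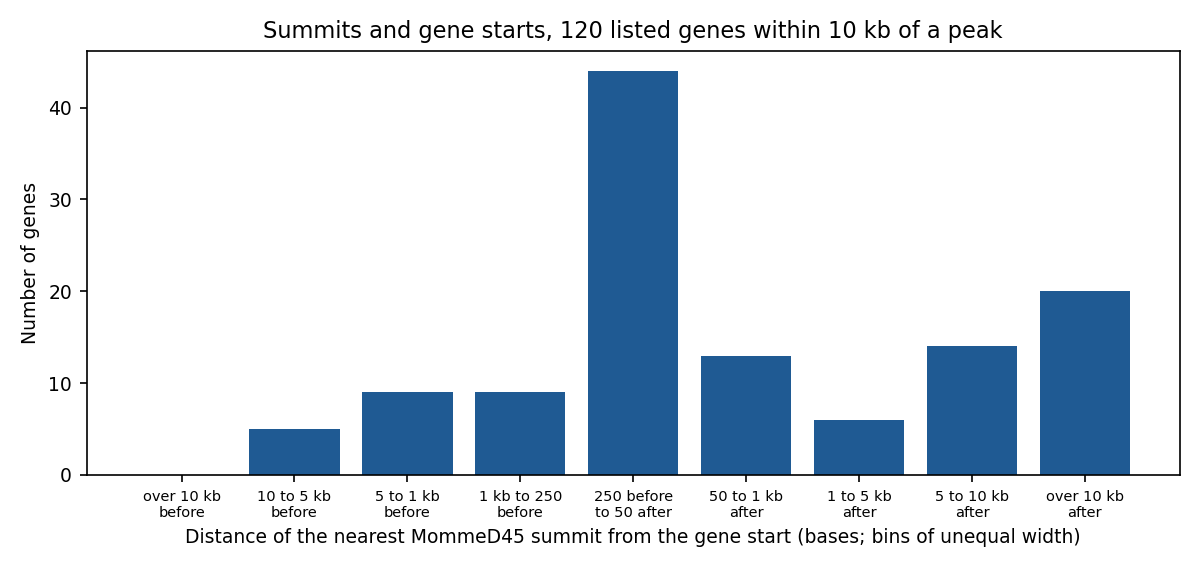
Number of listed genes by the distance of the nearest MommeD45 summit from the gene start (bases, in bins of unequal width), for 120 genes with a known strand. The bin from 250 bases before to 50 after the start holds 44 genes, and the bin over 10 kb after it holds 20.

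A MommeD45 peak at chr8:87432336-87432621 lay outside the Klf1 locus (chr8:87425827-87429194, plus strand), 3142 bases beyond its end. It had a fold enrichment of 10.6 and an overlapping wildtype peak, and which gene it acts on was not tested. In the authors' deposited table Klf1 was at 378 FPKM in +/-, 398 in D45/- and 34.8 in -/-. The authors' deposited table called it lower in -/- (log2 ratio -3.44) and gave no call between D45/- and +/-.

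Listed genes near a MommeD45 peak were mostly lower without KLF1. Of the 150, 119 (79.3%, exact 95% interval 72.0 to 85.5%) were called lower in -/- than in +/- per the authors' deposited table, against 43.2% of all 2036 listed genes. Only 19 (12.7%) were called higher, against 44.5% of all. The share called lower was 77.2% for the 206 genes near a wildtype peak and no MommeD45 peak, and 35.8% for the 1680 genes near neither, so the first of these lay within the interval of the 150. Genes are not independent replicates, and 15 peaks lay near more than 1 gene.

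Between D45/- and -/- livers, which sets MommeD45 over a null allele against no intact allele, 88 of the 150 (58.7%, 50.3 to 66.6%) were called higher in D45/- in the authors' deposited table, against 22.2% of all listed genes. Another 12 (8%) were called lower, against 31.1% of all. Of the 206 genes near a wildtype peak alone, 47.6% were called higher. This comparison and that of -/- with +/- use the same -/- libraries, and each also shares libraries with the comparison of D45/- with +/-.

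Between D45/- and +/- livers few of these genes had a call. By the authors' deposited table, 15 of the 150 (10%, 5.71 to 16.0%) were called lower in D45/-, against 6.97% of all listed genes, which lies inside that interval. Only 1 (0.667%) was called higher, against 4.22% of all. For the 206 genes near a wildtype peak alone, 30 (14.6%) were called lower, which also lies inside it. No test between peak classes was run. Of the 116 genes near an overlapping peak 12 were called lower in D45/- than +/- and 97 (83.6%) lower in -/- than +/-. Of the 36 near a peak with no wildtype overlap these numbers were 3 and 24 (66.7%). Over all listed genes the shares were 6.97% and 43.2%. Higher calls in -/- than +/- numbered 10 of the 116 and 9 of the 36, against 44.5% of all listed genes.

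**Figure D4:**
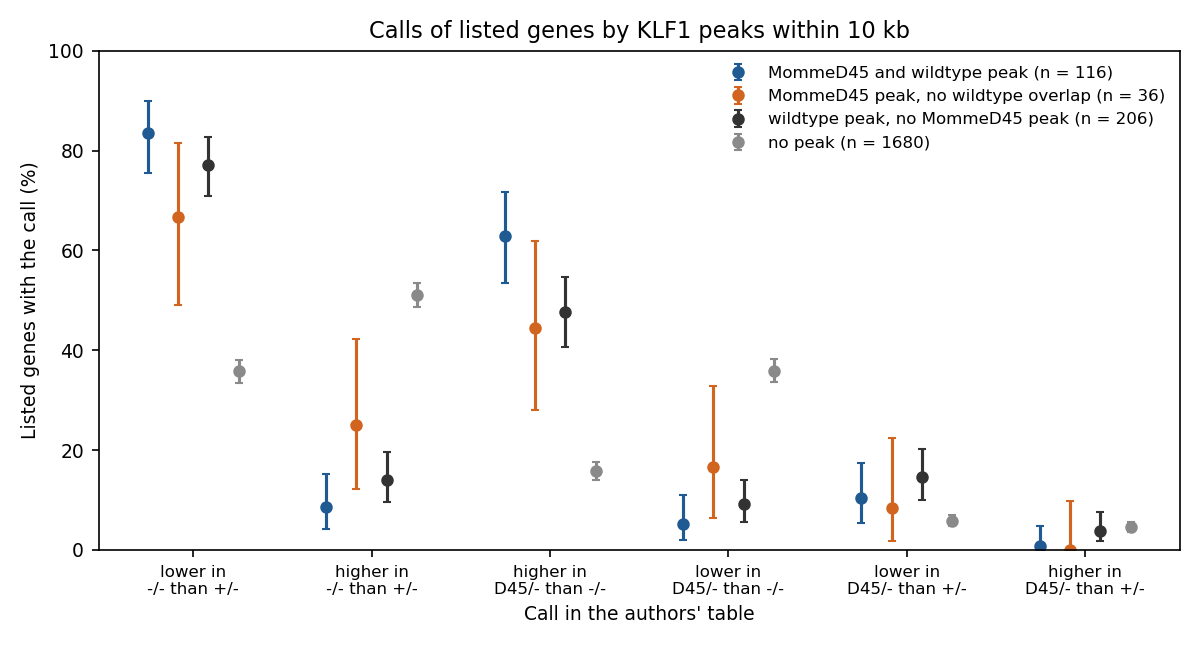
Share of listed genes (percent) with each call of the authors' table, for genes near a MommeD45 peak that overlaps wildtype (116), near a MommeD45 peak that does not (36), near a wildtype peak and no MommeD45 peak (206) and near neither (1680), with exact 95% intervals; 2 genes stand in both of the first groups. The share called lower in -/- than +/- is 66.7 to 83.6% in the 3 groups near a peak and 35.8% in the group near none.

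The median log2 ratio of called genes near a MommeD45 peak was -1.15 for -/- against +/- (138 genes) in the authors' deposited table, beside 0.75 for all called genes. For D45/- against -/- it was 0.96 (100 genes) in the authors' deposited table, beside -0.87 for all called genes. The most frequent pattern, in 73 of the 150 genes, was a lower call in -/- than +/-, a higher call in D45/- than -/- and no call between D45/- and +/-. The next, in 31 genes, was a lower call in -/- than +/- alone. Another 8 had both of the first 2 calls and were also called lower in D45/- than +/-, and 7 were called lower in both genotypes with no call between them. These patterns were counted among the 150 genes only. Whether they are more frequent there than over all listed genes was not tested.

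The 16 genes called between D45/- and +/- included regulators of cell division. E2f2 and E2f4 encode E2F factors, which act on genes of DNA replication and the cell cycle in red cell precursors. The E2f2 peak, inside the gene at chr4:135733896-135734184, had its summit 5734 bases after the start and a fold enrichment of 7.05. E2f2 was at 203 FPKM in +/-, 83.8 in D45/- and 20.6 in -/- per the authors' deposited table, with log2 ratios of -1.28 (D45/- against +/-) and -3.31 (-/- against +/-). E2f4 was at 413, 198 and 80.7 FPKM in the same order in the authors' deposited table, and its peak, at chr8:107823958-107824133, had a fold enrichment of 4.32. For both genes D45/- lay between the other genotypes, and all 3 comparisons were called. Rgcc, a regulator of the cell cycle, was at 22.7 FPKM in +/-, 3.39 in D45/- and 4.26 in -/- per the authors' deposited table (log2 ratio -2.74 for D45/- against +/-). D45/- and -/- had no call between them for Rgcc, whose summit lay 60 bases after the start.

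Kcnn4 encodes the calcium-activated potassium channel of the red cell membrane, known as the Gardos channel. Its peak lay inside the gene at chr7:25162115-25162393, 6960 bases after the start, with a fold enrichment of 6.89. The authors' deposited table gave 170 FPKM in +/-, 75.5 in D45/- and 18.6 in -/- for Kcnn4 (log2 ratio -1.17 for D45/- against +/-). Klf3 encodes a zinc finger repressor of the same family as KLF1. It was at 70.0 FPKM in +/-, 34.2 in D45/- and 10.8 in -/- per the authors' deposited table (log2 ratio -1.04). The nearest peak to Klf3, with its summit 583 bases before the start and a fold enrichment of 3.58, had no wildtype overlap, although another wildtype peak lay within 10 kb of the gene.

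Ubac1, which encodes a subunit of a ubiquitin ligase complex, was at 305 FPKM in +/-, 114 in D45/- and 25.6 in -/- per the authors' deposited table. Ptp4a3, which encodes a protein tyrosine phosphatase, was at 127, 57.8 and 14.3 FPKM in that order in the authors' deposited table. Mpst, an enzyme gene of cysteine breakdown, was at 114, 49.5 and 26.5 FPKM in the authors' deposited table. In these 3 genes, as in Kcnn4, Klf3 and Ttll12, D45/- was called below +/- and above -/-.

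Ttll12 was at 67.5 FPKM in +/-, 29.9 in D45/- and 15.5 in -/- per the authors' deposited table. Agpat4, an acyltransferase gene of phospholipid synthesis, was at 25.4, 9.10 and 8.03 FPKM in the authors' deposited table, beside a peak with a fold enrichment of 23.5. Eef2k, which encodes a kinase of translation elongation factor 2, was at 31.1, 13.0 and 8.45 FPKM in the authors' deposited table. Agpat4 and Eef2k, unlike Ttll12, had no call between D45/- and -/-.

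Phyhip, beside the strongest peak of the 16 genes, was at 1.59 FPKM in +/-, 0.276 in D45/- and 0.0526 in -/- per the authors' deposited table, which are low levels in all 3. Lrrc56, Spata13 (a guanine nucleotide exchange factor) and Sun1 (a protein that ties the nuclear envelope to the cytoskeleton) had log2 ratios of -1.02, -0.77 and -0.90 for D45/- against +/- in the authors' deposited table. The only higher call was that of Dcaf6, which encodes a substrate receptor of a ubiquitin ligase, at 54.2 FPKM in D45/- and 31.4 in +/- per the authors' deposited table (log2 ratio 0.79). Its peak, 599 bases from the locus, had a fold enrichment of 3.39 and an overlapping wildtype peak.

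**Figure D5:**
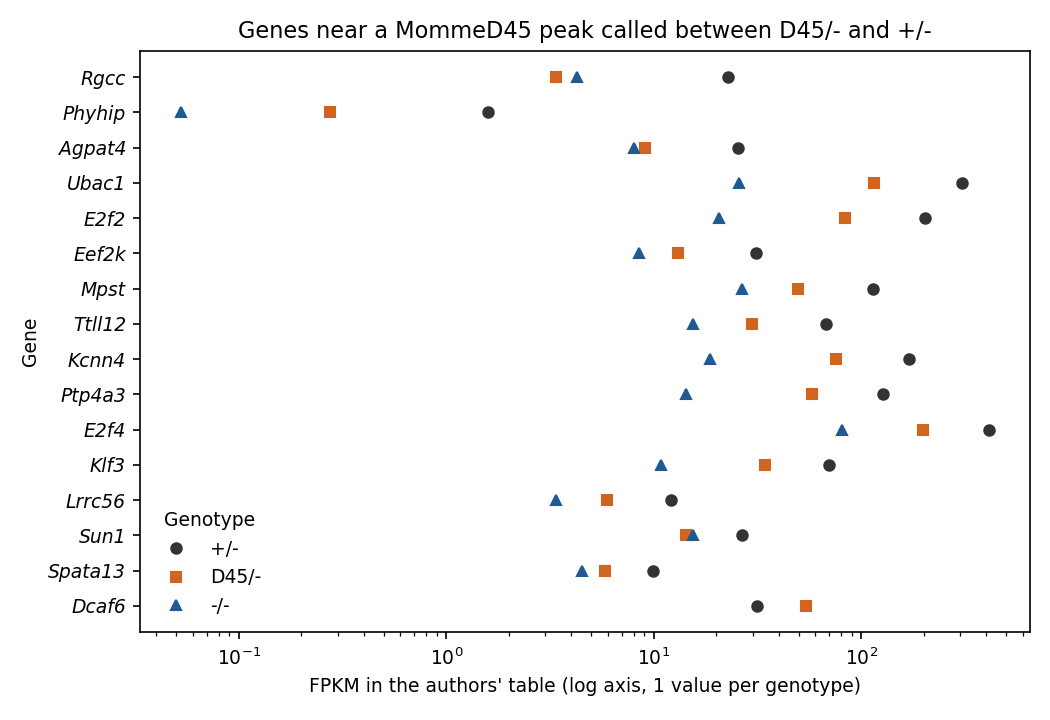
FPKM (log axis, 1 value per genotype from the authors' table) of the 16 genes within 10 kb of a MommeD45 peak that were called between D45/- and +/-, with a circle for +/-, a square for D45/- and a triangle for -/-. In 15 genes D45/- lies left of +/-, and Dcaf6, which has no -/- value, is the exception.

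The strongest peaks were also near genes with no call between D45/- and +/-. In the authors' deposited table Dedd2 was at 49.5 FPKM in +/-, 32.2 in D45/- and 15.8 in -/-, and Arhgef12 at 16.1, 11.9 and 7.17. Pgam1 went the other way in the authors' deposited table, at 168, 180 and 335 FPKM, called higher in -/- than in +/- (log2 ratio 1.00). Higd1a, a hypoxia-inducible gene of mitochondria, was at 11.9 FPKM in D45/- and 21.6 in -/- per the authors' deposited table. Gm15800, an E3 ubiquitin ligase family gene, was at 85.7, 78.0 and 38.7 FPKM in the authors' deposited table.

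Gene lists for red cell functions were read for their members near a peak. Over 8 lists, 28 of the 95 members in the table had a MommeD45 peak within 10 kb, beside 7.37% of all listed genes. The same 7.37% is the share to set beside the count of each list below. The lists were chosen with results of these data known. Heme synthesis had 5 of its 13 listed genes near a peak, among them Abcb10, Alad, Ppox and Urod. All 5 were called lower in -/- than +/-, as were 11 of the 13 listed genes whether near a peak or not, against 43.2% of all listed genes. All 5 were called higher in D45/- than -/-, against 22.2% of all listed genes. Between D45/- and +/- 0 of the 5 had a call, which is near the 6.97% lower and 4.22% higher of all listed genes. Alad, whose enzyme makes porphobilinogen, was at 814 FPKM in +/-, 504 in D45/- and 72.9 in -/- per the authors' deposited table, with a peak 3261 bases after the start. Ppox, for a later step of the pathway, was at 206, 198 and 72.3 FPKM in the authors' deposited table, with its summit 183 bases after the start. Urod, for uroporphyrinogen decarboxylase, was at 850, 727 and 345 FPKM in the authors' deposited table, with its summit 546 bases after the start. Abcb10, a mitochondrial transporter gene, was at 221, 206 and 114 FPKM in the authors' deposited table.

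The membrane skeleton list had 5 of its 12 listed genes near a peak. All 5 were called lower in -/- than +/-, as were 11 of the 12 whether near a peak or not, against 43.2% of all listed genes, and all 5 were called higher in D45/- than -/-, against 22.2%. Ank1, which encodes ankyrin, had 2 MommeD45 peaks and was at 309 FPKM in +/-, 219 in D45/- and 47.2 in -/- per the authors' deposited table. Add2, which encodes beta adducin, was at 259, 285 and 50.9 FPKM in the authors' deposited table, with a peak 49310 bases after the start. Slc4a1, which encodes the anion exchanger band 3, was at 2086, 1690 and 568 FPKM in the authors' deposited table. Sptb, which encodes beta spectrin, had 2 peaks, neither with a wildtype overlap, and was at 313, 260 and 135 FPKM in the authors' deposited table. Add1, for alpha adducin, was at 288, 231 and 122 FPKM in the authors' deposited table, with its nearest summit 60 bases before the start.

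Of the surface protein genes, 2 of 11 were near a peak, beside 7.37% of all listed genes. Ermap, which carries the Scianna blood group, was at 416 FPKM in +/-, 286 in D45/- and 79.5 in -/- per the authors' deposited table, with its summit 22 bases before the start. Gypc, for glycophorin C, was at 144, 110 and 59.6 FPKM in the authors' deposited table. Of 14 listed transporter genes 2 were near a peak, Kcnn4 and the glycine transporter gene Slc6a9, which was at 110 FPKM in +/- and 47.5 in -/- per the authors' deposited table. Of 15 maturation genes 1 was near a peak, a share near the 7.37% of all listed genes. It was the transferrin receptor gene Tfrc, whose summit lay 24 bases after its start in a peak with no wildtype overlap, and it was at 159, 131 and 45.3 FPKM in the authors' deposited table.

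Of 9 cell cycle genes, E2f2, E2f4 and Ccnd3 were near a peak. Ccnd3, which encodes a D-type cyclin, was at 293 FPKM in +/-, 305 in D45/- and 160 in -/- per the authors' deposited table, and its nearest summit was 31078 bases after the start. Of 15 erythroid factor genes 6 were near a peak, namely Klf1, Klf3, Nfe2, Tal1, Zfpm1 and Cited2. Nfe2, which binds globin control regions, was at 225, 232 and 94.8 FPKM in the authors' deposited table. Tal1, a partner of GATA1, was at 319, 295 and 151 FPKM in the authors' deposited table, with a summit 2812 bases before the start. Zfpm1, which encodes the GATA1 cofactor FOG1, was at 381 FPKM in +/- and 222 in -/- per the authors' deposited table. Cited2, a CBP/p300 binding factor, was the only list member near a peak called higher in -/-, at 16.2 FPKM in +/- and 30.9 in -/- per the authors' deposited table.

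Markers of other liver cells were read in the same way. Of markers for hepatocytes 2 were in the table, for megakaryocytes 4 and for macrophages 3, and 0 of these 9 had a MommeD45 peak within 10 kb, which is near the 7.37% of all listed genes and says nothing about these cell types. Of 6 listed markers of red cell precursors 3 had one, namely Klf1, Slc4a1 and Tfrc. The hepatocyte markers went different ways per the authors' deposited table, with Serpina1b at 210 FPKM in +/-, 109 in D45/- and 247 in -/-, and Cps1 at 3.87, 7.85 and 4.18. The macrophage markers did so too per the authors' deposited table, with Marco at 14.9, 5.19 and 25.7 FPKM in the same order, Clec4f at 1.55, 5.03 and 2.30, and Emr1 at 5.31 in D45/- and 11.1 in -/-. The 4 listed megakaryocyte markers, of 5 chosen, were higher in -/- than in +/- per the authors' deposited table. Beside this, 44.5% of all listed genes were called higher in -/- than +/-. Only genes with a call are listed, so a marker without any call could not appear here. Itgb3 was at 18.2 FPKM in +/-, 30.9 in D45/- and 45.8 in -/-, and Plek at 17.8, 31.6 and 47.4. Pf4 was at 469 in +/- and 879 in -/-, and Itga2b at 56.5 and 129, with no D45/- value for either gene. The part of cell composition in the gene values was not tested.

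Peaks were counted at both globin loci. Around the alpha-globin genes there were 3 MommeD45 and 4 wildtype peaks, and 3 of the wildtype peaks were shared. A further shared MommeD45 peak, at chr11:32150929-32151151 with a fold enrichment of 3.88, was outside this count, 25449 bases from the nearest listed gene. Around the beta-globin genes there was 1 MommeD45 peak and 6 in wildtype, of which 1 was shared, a share near the 30.01% of all wildtype peaks. The 5 unshared wildtype peaks there had fold enrichments from 4.36 to 6.36 in the wildtype list, on both sides of its median of 4.93. The shared wildtype peak there stood at 5.63. At the alpha locus the 3 shared wildtype peaks stood at 20.3, 15.9 and 8.09, and the unshared one at 6.66. The MommeD45 peak at the beta locus, at chr7:110976307-110976669, had a fold enrichment of 3.65 and covered the start of Beta-s, whose promoter holds the CCACACCC shown above. No MommeD45 peak was called at the merged row Hbb-b1,Hbb-b2, which had 2 wildtype peaks. Nor was one called at the wildtype peaks starting at chr7:111007669 and chr7:111009434, which lie beyond Hbb-y on the side of the locus control region.

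Beta-s was at 1749 FPKM in +/-, 1362 in D45/- and 98.2 in -/- per the authors' deposited table, with log2 ratios of -4.16 (-/- against +/-) and 3.79 (D45/- against -/-). Hba-a2 was at 935 FPKM in D45/- and 295 in -/- per the authors' deposited table, with no call against +/-, and its peak at chr11:32196288-32196586 had a fold enrichment of 9.89. Hba-x, the embryonic alpha-like gene, was at 1249, 687 and 274 FPKM in the authors' deposited table, and Hbq1a at 8.55, 6.68 and 1.99. The globin transcripts were depleted before sequencing and near-identical copies may share reads, so these values show the genotypes after depletion. Of the 4 globin genes near a MommeD45 peak 0 were called between D45/- and +/-, which is near the 6.97% lower and 4.22% higher of all listed genes.

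All 36 listed genes near a peak with no wildtype overlap are covered by the counts above, and 24 of them were called lower in -/-. These 24 held Sptb, Tfrc, Ptp4a3, Klf3, Sun1 and Rab35. They also held Ranbp10, which encodes a tubulin-binding protein, at 178 FPKM in +/-, 160 in D45/- and 47.0 in -/- per the authors' deposited table. Mtfr1, a regulator of mitochondrial fission, was at 74.7, 48.9 and 20.6 FPKM in the authors' deposited table. The rest of the 24 were Agfg2, Dyrk3, Lmnb1, Nelfe, Polr2l, Ppm1g, Ppp1r15a, Rab43, Sf3a1, Slbp, Slc6a9, Srsf2, Tmem134, Tmem69, Wdr4 and Zc3h4. Not all of these are sites apart from wildtype peaks, because only 29 of the 36 genes had no wildtype peak within 10 kb. Klf3, Mtfr1, Slc6a9, Srsf2, Sun1, Wdr4 and Zc3h4 had one, and at Mtfr1 it lay 337 bases from the unshared peak. Mtfr1 and Wdr4 also had an overlapping MommeD45 peak near.

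The 9 called higher in -/- than +/- were Arrdc3, Cited2, F2r, Fnip1, Lims1, Parp6, Pnrc1, Rnase4 and Trp53inp1. Trp53inp1, a target of p53 with a part in autophagy, was at 1.58 FPKM in +/-, 1.72 in D45/- and 6.21 in -/- per the authors' deposited table. Fnip1, a partner of folliculin, was at 3.07 FPKM in +/- and 5.71 in -/- per the authors' deposited table. F2r, the thrombin receptor gene, was at 17.3 and 36.0 FPKM in the authors' deposited table, with its summit 53 bases before the start. The remaining 3 of the 36, Pdk1, Fignl1 and Zdhhc20, had calls between D45/- and -/- only.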

How the data were processed

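The deposited description sheet says that the authors mapped read pairs to mm9 with Bowtie2, removed duplicates with Picard and called peaks with MACS2, with caller options that name no control file. The deposited peak lists give, per the file headers, the pileup signal at the summit, the fold enrichment over local background and the p-value and q-value as −log10. The deposited expression table holds, for each cuffdiff comparison, the abundance in both genotypes with a log2 ratio, p-value and q-value. The unit is taken to be FPKM from the cuffdiff layout of the deposited table, since its header names none. TopHat2 2.0.10 is named in the submitters' processing notes, and no version of cuffdiff is stated there. Only genes the authors called at their q of 0.05 are listed, so a gene missing from a comparison was not called or not tested. The deposited log2 ratios hold no pseudocount.

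From these files, peaks with the same coordinates were counted once, peaks with 1 or more bases in common counted as shared, and a gene of the deposited table was counted as near a peak at most 10 kb from its locus. Gene strands and promoter windows came from RefSeq (GRCm38.p6), matched by symbol or synonym. Intervals of shares are exact 95% intervals (Clopper-Pearson) for counting error alone. No test between genotypes was made for peaks, since each ChIP library stands alone, and depth is unknown. The overlap, distance and motif searches were tested on simulated data.

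The members and lists were chosen with earlier results of these data known. The text names the 10 strongest MommeD45 peaks, the 10 strongest without a wildtype overlap, Klf1, every near gene called between D45/- and +/-, the 5 near genes with the strongest peaks and no such call, gene list members near a peak, and the genes near a peak without a wildtype overlap. A gene that this rule takes is not reported here. Other genes and the strongest unshared wildtype peaks were named after their values were seen. Alternatives covered peak strength, the definition of overlap, the distance to a gene, a stricter q, an abundance minimum of 1 FPKM and a pseudocount of 1 FPKM. Sequences of the peaks themselves were not analysed here. Python 3.11.15, numpy 2.4.6, pandas 2.3.3, scipy 1.17.1 and matplotlib 3.10.9 were used.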

Additional observations from a re-analysis of the deposited data

How the results depend on the processing

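Of 47 alternative values, 30 stayed within 1.5 times the reported count, the interval of the reported share or the quartiles behind the reported median, and 17 moved. No direction reversed. A fold enrichment of at least 10 left 30 MommeD45 peaks, 96.7% of them shared with wildtype and 1 not, and 15 near genes. A −log10 q of at least 10 left 174 peaks, 94.3% shared and 10 not, and 58 near genes. With wildtype peaks held to that same q, 56.7% of MommeD45 peaks were shared and 210 were not. An overlap of at least 50% of each peak gave 67.0%. Overlap with the locus itself gave 90 near genes and a distance of 50 kb gave 270. At 50 kb, 71.9% of near genes were called lower in -/- than +/- and 48.9% higher in D45/- than -/-. At a q of at most 0.01 these shares were 63.3% and 38.7%, since fewer calls pass. The shares of all listed genes at that stricter q were not counted, so these 2 values have no baseline here. The cause of the other moves was not tested. A summit within 10 kb of the gene start, an alternative chosen after seeing the data, moved no share beyond its interval.

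No paired analysis was possible because each ChIP library stands alone and the authors' deposited table holds 1 value per genotype. For the same reason no replicate was left out. Depth is unknown, so no absence of binding is read from a site without a MommeD45 peak.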

Other observations

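Some genes near a MommeD45 peak were highest without KLF1, and those named here were chosen after their values were seen. The metallothionein genes Mt1 and Mt2, whose proteins bind zinc and copper, shared 2 MommeD45 peaks, with the nearest summit 6 bases before the start of Mt1. Mt1 was at 2071 FPKM in +/-, 1983 in D45/- and 6375 in -/- per the authors' deposited table, and Mt2 at 2486, 2254 and 6669. Ankrd37, a hypoxia-inducible gene, was at 3.87 FPKM in +/-, 3.07 in D45/- and 24.1 in -/- per the authors' deposited table, beside a peak with a fold enrichment of 2.93 and a summit 131 bases before the start. None of the 3 was called between D45/- and +/-.

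The background implied by pileup and fold enrichment, taken as (pileup + 1) / fold − 1, had a floor in each list. It was 4.66 at 218 of the 485 MommeD45 peaks (44.9%) and 4.51 at 426 of the 1203 wildtype peaks (35.4%), within a tolerance of 0.001.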
